A study of Mus musculus with 8 samples.

Results

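The variable segments of the T cell receptor alpha and beta chains, Trav and Trbv, were examined in CD4 T cells of the mouse spleen, in 8 libraries of bulk RNA made from sorted cells. Every gene of the count table whose symbol in the GRCm38 annotation starts with Trav or Trbv was taken, which gave 163 of 54837 entries. These are 128 Trav segments on chromosome 14 (52427928 to 53977678) and 35 Trbv segments on chromosome 6 (40891229 to 41558452). The choice used names only and no measured value. All mice received tamoxifen on 5 consecutive days and carried Foxp3-eGFP-Cre-ERT2, in which the regulatory T (Treg) cell gene Foxp3 is linked to green fluorescent protein and to a Cre recombinase that tamoxifen activates. GFPhi (n = 3) came from mice that also carried the FSF-TIM-3 transgene and was gated as TIM-3+ FLAG+ GFP+ FoxP3+. GFPlow (n = 3), from that genotype too, was gated as TIM-3+ FLAG+ GFP- FoxP3-, although another label field calls it Treg. WT (n = 2) lacked the transgene, and its gate was TIM-3- FLAG- GFP+ FoxP3+. The Cre is driven by Foxp3, and the GFPlow gate holds FLAG+ cells without FoxP3, on which the labels say no more. GFPhi and GFPlow libraries carry the numbers M1 to M3 in their titles, WT libraries the numbers 1 and 2. Age, sex and strain are not given in the labels, nor whether an M number stands for a mouse, so p-values measure the spread between these libraries only.

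Each developing T cell joins 1 variable segment to a joining segment and a constant gene for the alpha chain, and a variable, a diversity and a joining segment to a constant gene for the beta chain. The V segment encodes the framework and the first complementarity-determining loops, which mostly contact the major histocompatibility complex. A mature cell transcribes the segment it has joined, and its daughters keep it, so the reads over V segments in bulk RNA trace which segments the sorted cells use. A segment is not switched on and off in response to a signal, and its level in a library is the number of cells that use it times the receptor RNA per cell; fewer cells and less RNA per cell cannot be told apart here. For that reason the share of a segment in all Trav or all Trbv counts is given beside its abundance in CPM (counts scaled to library size, with the trimmed mean of M-values, TMM, as factor).

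The beta chain segments Trbv12-1 and Trbv12-2 are printed first, because they are the single segments that passed the test between groups in the main fit. Trbv12-1 (ENSMUSG00000095574) lies at chromosome 6, 41113550 to 41114067, and Trbv12-2 (ENSMUSG00000094525) at 41118851 to 41119364, both on the plus strand of GRCm38. Their GENCODE transcripts align over 385 bases, with 340 identical (88.3%) and 45 mismatches. The last 290 bases of each transcript follow, 5′ to 3′, with the 32 bases that differ between them in capitals.
Trbv12-1: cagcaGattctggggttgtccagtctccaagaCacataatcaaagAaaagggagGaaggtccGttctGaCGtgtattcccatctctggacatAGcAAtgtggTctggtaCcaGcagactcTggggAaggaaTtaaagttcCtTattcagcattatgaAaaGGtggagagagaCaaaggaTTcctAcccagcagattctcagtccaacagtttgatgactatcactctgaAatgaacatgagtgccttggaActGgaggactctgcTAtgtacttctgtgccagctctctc
Trbv12-2: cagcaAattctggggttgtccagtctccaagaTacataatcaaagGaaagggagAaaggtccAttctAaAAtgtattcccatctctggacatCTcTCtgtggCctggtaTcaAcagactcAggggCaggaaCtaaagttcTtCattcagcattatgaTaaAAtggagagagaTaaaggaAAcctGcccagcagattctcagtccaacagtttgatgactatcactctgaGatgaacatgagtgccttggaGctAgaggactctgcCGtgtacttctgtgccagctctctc
The differing bases are spread along the whole stretch, and both stretches end alike, including the tgt codon of the cysteine from which the third loop starts. No Trbv segment is identical to another over its length, the highest identity being 90.6% between Trbv13-2 and Trbv13-3. The Trbv values are therefore little exposed to reads that match several segments, in contrast to the Trav values described further on.

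Library totals ran from 44446215 to 55388756 counts, and 18851 genes were tested. Foxp3 followed the gates, at 60.2, 68.1 and 81.0 CPM in GFPhi, 2.45, 1.97 and 4.82 CPM in GFPlow and 41.7 and 63.2 CPM in WT. WT library 1 stood apart. Its scaling factor was 0.694 against 1.04 to 1.07 in the other 7, and it held 8016 Trav counts against 15081 to 23398. Its Cd3d level was 4583 CPM against 1053 to 1245 CPM, and its Cd4 level 109.3 CPM against 287.8 to 436.3 CPM. The platelet genes Ppbp and Pf4 were at 26.7 and 13.1 CPM in it, against at most 2.86 and 1.36 CPM elsewhere. Calls of segments against WT are given with and without WT library 1. The X-inactivation RNA Xist stood at 236.7 and 183.8 CPM in both M3 libraries and 242.2 CPM in WT library 2, which also had the Y-linked Ddx3y at 6.16 CPM against 170.3 to 228.5 CPM in the Xist-negative libraries. Of the markers of other cells, the recombinase genes Rag1 and Rag2 had no count in any library, Cd8a did not exceed 4.05 CPM, and Cd8b1 stood at 15.9 to 37.7 CPM in all 8 libraries. The B cell markers read here summed to 707.9 to 1087.6 CPM, nearly all of it Ighm, and Igkc reached 119 CPM in GFPlow M2. Within that list Cd79b, a subunit of the B cell receptor, moved with the group: it was at 50.1, 44.5 and 43.2 CPM in GFPhi, 3.62, 3.03 and 11.2 CPM in GFPlow and 70.4 and 50.6 CPM in WT. GFPhi exceeded GFPlow by 2.95 ± 0.50 (SE, adjusted p = 0.0238, edgeR), and GFPlow differed from WT by -3.34 ± 0.53 (adjusted p = 0.0161). The macrophage gene Lyz2 reached 197 CPM in GFPlow M3 and at most 27.1 CPM elsewhere. Igkc and Lyz2 were thus high in single libraries, while Cd79b was low in the same 3 libraries as Trbv12-1 below; the part of these levels in segment use was not tested.

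The 35 Trbv segments took 44824 to 54198 counts per library, of which 5 segments, all pseudogenes, had none. The 10 segments with the highest share held 76.9% to 80.2% of Trbv counts in every library. Trbv3 had the highest mean share and took 12.9%, 13.5% and 11.8% of Trbv counts in GFPhi, 12.4%, 11.2% and 10.4% in GFPlow and 12.3% and 11.8% in WT. Trbv13-2, a member of the largest functional Trbv subgroup, came next with 9.89%, 9.59% and 9.59% in GFPhi, 10.3%, 11.8% and 10.8% in GFPlow and 8.20% and 8.42% in WT. Reads scale with the length of a segment, and per kilobase of exon Trbv13-2 ranked first and Trbv3 second. Trbv1, the most upstream segment of the locus, took 7.71% in both WT libraries and 8.38% to 12.3% in the others. Trbv16 varied little, from 7.25% to 8.55% over all 8 libraries. Trbv19, whose exons are the longest of the family at 566 bases, took 4.95% in WT library 1, 6.44% in GFPlow M3 and 6.73% to 9.58% elsewhere, and was the fifth by share but only the ninth per kilobase. Trbv31, the segment downstream of the constant genes and the only one on the minus strand, took 9.28% and 4.60% in the WT libraries, 5.36%, 5.78% and 6.40% in GFPhi and 5.88%, 8.27% and 9.78% in GFPlow.

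**Figure D1:**
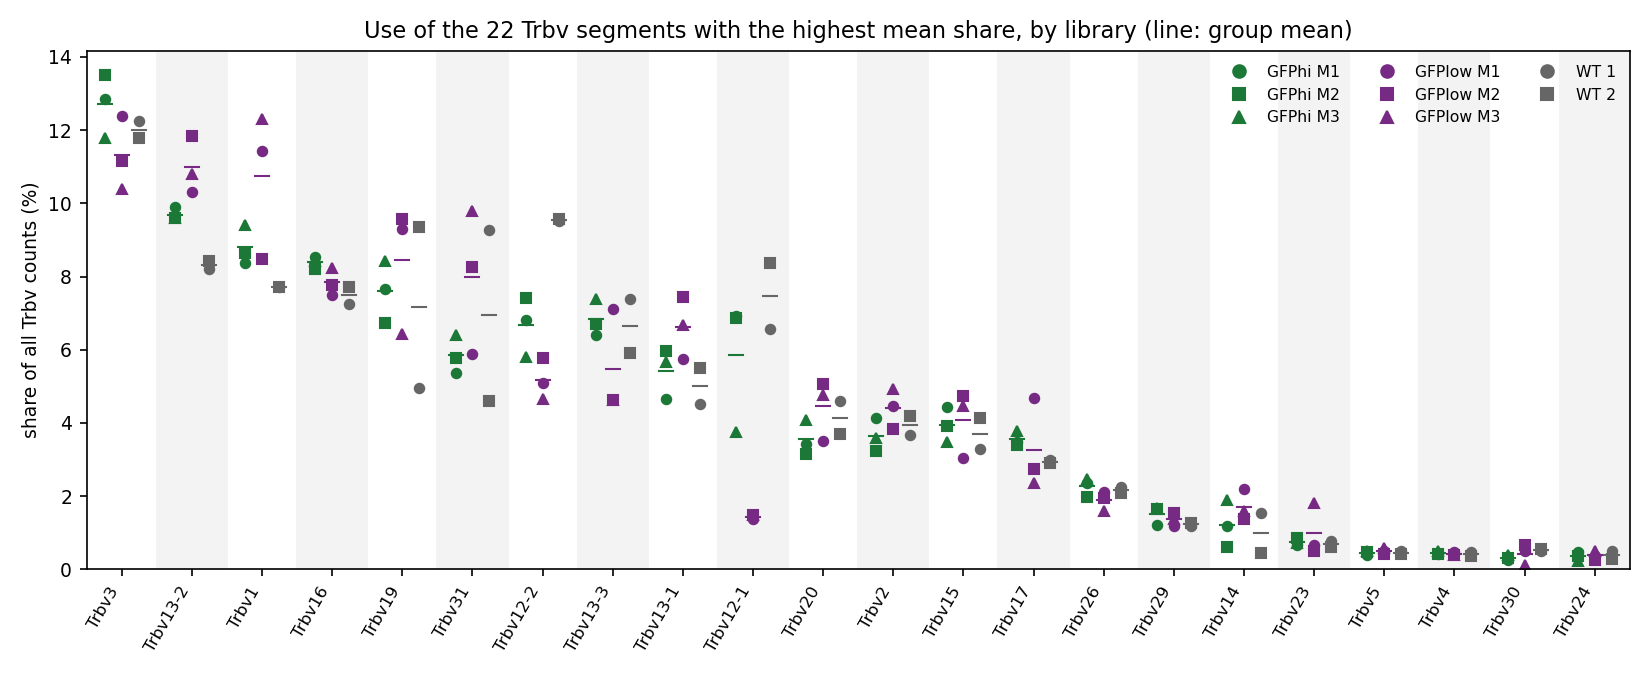
Share of all Trbv counts (%, vertical axis) for the 22 segments with the highest mean share, one point per library (green GFPhi, purple GFPlow, grey WT, marker shape for the library number) and a line for each group mean. Most segments overlap between groups, while the 3 GFPlow libraries lie at 1.38% to 1.48% for Trbv12-1, below all others.

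Trbv12-1 took a far smaller share of Trbv counts in GFPlow than in the other groups. Its share of Trbv counts was 6.93%, 6.87% and 3.74% in GFPhi M1, M2 and M3, 1.38%, 1.47% and 1.48% in GFPlow, and 6.56% and 8.37% in WT. The 3 GFPlow libraries agreed to within their counting error, with exact 95% binomial intervals of 1.28% to 1.48%, 1.37% to 1.59% and 1.37% to 1.59%, and GFPhi M3 lay between them and the other 4 libraries. Such intervals cover counting error only, since reads are not independent molecules. In CPM the segment stood at 61.3, 66.3 and 34.3 in GFPhi, 13.5, 13.4 and 13.6 in GFPlow, and 102.8 and 78.2 in WT. The log2 fold change of GFPhi over GFPlow was 2.0 ± 0.27 (SE, adjusted p = 0.0101, edgeR quasi-likelihood test with Benjamini-Hochberg adjustment over all genes tested), the higher level standing in GFPhi in 3 of 3 M numbers. That call was lost, at an adjusted p of 0.0518 to 0.0621, when GFPhi M1, GFPhi M2 or any one GFPlow library was left out, and held at 0.0109 without GFPhi M3 and at 0.00187 without WT library 1. The log2 change itself stayed between 1.82 and 2.24 in those fits.

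Against WT, Trbv12-1 fell by 2.74 ± 0.29 on the log2 scale in GFPlow (SE, adjusted p = 0.00432 by edgeR). This call held in all 17 alternative fits, including that without WT library 1 (-2.53, adjusted p = 0.00289). GFPhi had a log2 difference of -0.75 ± 0.28 from WT (adjusted p = 0.348), which did not pass. The neighbouring segment Trbv12-2 took 6.81%, 7.41% and 5.79% of Trbv counts in GFPhi, 5.08%, 5.79% and 4.64% in GFPlow, and 9.51% and 9.57% in WT. Both WT libraries lay above the other 6, and GFPlow M2 and GFPhi M3 had nearly the same share. Trbv12-2 fell in GFPlow against WT (-1.30 ± 0.25, SE, adjusted p = 0.0330, edgeR), a call kept in 9 of 17 alternatives and lost when any GFPhi or GFPlow library was left out, at 0.0654 to 0.133. Without WT library 1 the difference was -0.88 with an adjusted p of 0.0272. Between GFPhi and GFPlow it differed by 0.35 ± 0.23 (adjusted p = 0.736) and between GFPhi and WT by -0.95 ± 0.25 (adjusted p = 0.348), neither past the threshold. The third segment of the subgroup, the pseudogene Trbv12-3, had at most 8 counts in a library.

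Beside its neighbour, Trbv12-1 had 1.02, 0.926 and 0.647 reads for each Trbv12-2 read in GFPhi, 0.271, 0.255 and 0.318 in GFPlow, and 0.689 and 0.874 in WT. The ratio was thus below every other library in all 3 GFPlow libraries. When each segment was scaled to the total of its family instead of the whole library, Trbv12-1 stayed higher in GFPhi than in GFPlow (2.02, adjusted p = 0.00919) and lower in GFPlow than in WT (-2.37, adjusted p = 0.00557). Trbv12-2 stayed lower in GFPlow than in WT under that scaling (-0.88, adjusted p = 0.0411). Together the 3 Trbv12 segments made up 13.8%, 14.3% and 9.54% of Trbv counts in GFPhi, 6.47%, 7.27% and 6.12% in GFPlow, and 16.1% and 17.9% in WT, so the 3 groups did not overlap.

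**Figure D2:**
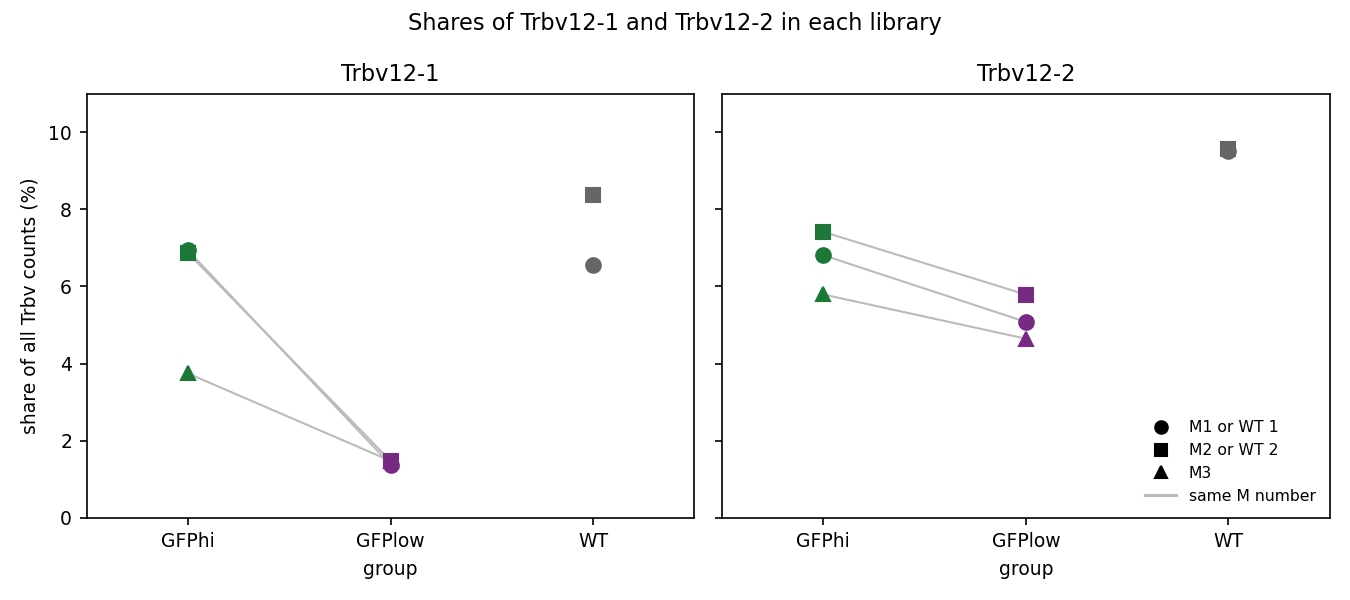
Share of all Trbv counts (%, vertical axis) of Trbv12-1 and Trbv12-2 in each library by group, with grey lines joining GFPhi and GFPlow libraries of the same M number. Trbv12-1 drops to 1.38% to 1.48% in GFPlow from 3.74% or more in every other library, while Trbv12-2 runs from 4.64% to 9.57%.

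Of the 24 Trbv segments tested, 1 was called in GFPhi against GFPlow (Trbv12-1, higher), where 2.26% of all genes were called and 1.63% were called higher. In GFPlow against WT 2 were called lower (Trbv12-1 and Trbv12-2), where 3.3% of all genes were called, 2.23% lower and 1.08% higher. In GFPhi against WT none was called, as was the case for 0% of all genes by edgeR; 3 Trbv and 4 Trav segments had an unadjusted p under 0.05, as did 13.7% of all genes, and DESeq2 called 0 but gave an adjusted p to only 1 of the 116 segments tested. In GFPhi against GFPlow 11 of the 24 lay above 0 (51.2% of all genes), with a median log2 fold change of -0.09 (all genes 0.01). In GFPhi against WT 23 of 24 lay below 0 (46.3% of all genes), with a median of -0.37 (all genes 0.08), and in GFPlow against WT 19 of 24 (49.1% of all genes), with a median of -0.32 (all genes 0.02). Both sets of values against WT rest on WT library 1, whose Trbv sum was the highest. Without it 10 of 25 Trbv segments lay below 0 in either comparison, with medians of 0.10 and 0.11. Of all genes 45.9% and 46.8% lay below 0 in that fit, with medians of 0.02 and 0.03. In CPM, the libraries of GFPhi and GFPlow did not overlap for 3 of 24 segments, 2 of them higher in GFPhi, against 30% of all genes and 16% higher. GFPhi and WT did not overlap for 5, all lower in GFPhi, against 28.1% of all genes and 12.6% lower. GFPlow and WT did not overlap for 3, all lower in GFPlow, against 19.2% of all genes lower. Without WT library 1, 9 segments were higher and 5 lower in all GFPhi libraries than in WT library 2 (23.2% and 25.1% of all genes), and 8 higher and 3 lower in all GFPlow libraries (29% and 31.7% of all genes). The 11 Trbv segments that were not tested are all pseudogenes, with at most 15 counts in a library and 0.0439% of Trbv counts between them.

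Apart from the Trbv12 pair, 1 Trbv segment of 24 separated GFPhi from GFPlow by share, and others separated one of these from the WT libraries. Against WT, the shares of Trbv1, Trbv13-2, Trbv16 and Trbv17 were higher and that of Trbv30 lower in all GFPhi libraries, and those of Trbv1, Trbv13-1 and Trbv13-2 were higher and that of Trbv22 lower in all GFPlow libraries. None of these passed the test in CPM. With the Trbv12 segments counted, 6 of 24 did not overlap by share in GFPhi against WT and 6 of 24 in GFPlow against WT. In CPM, 28.1% and 40.3% of all genes did not overlap in these comparisons, and the share counts were not tested. Trbv13-2 was lower in all 3 GFPhi libraries (9.59% to 9.89%) than in all 3 GFPlow libraries (10.3% to 11.8%), and both WT libraries (8.20% and 8.42%) lay below these. Its log2 difference in CPM between GFPhi and GFPlow was -0.20 ± 0.20 (SE, adjusted p = 0.938), within the error. Trbv1 had a mean share of 8.81% ± 0.531 (SD, n = 3) in GFPhi and 10.7% ± 2.0 (SD, n = 3) in GFPlow, which overlapped because GFPlow M2 stood at 8.49%. Trbv16 and Trbv3 overlapped or nearly touched between GFPhi and GFPlow, with log2 differences of 0.07 ± 0.19 and 0.14 ± 0.23.

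The 128 Trav segments lie in a locus that holds a duplicated stretch, so that many segments have copies marked d or n in the symbol. By these symbols 111 segments have such a copy, and the 128 form 57 groups of copies. Of the 128 transcripts 48 are identical to another over the aligned length, and the median identity to the nearest other segment was 98.8%. How reads that match several copies were counted is not given in the sources used here, so values of single copies are uncertain and sums over copies are given beside them. The 48 segments with an identical partner held 2.77% to 4.85% of Trav counts. Reads that match several copies may have been left out, so this share does not bound the use of these 48. Per library the family took 8016 to 23398 counts over 100 to 114 segments with at least 1 count, and 9 segments had none in any library. The 42 segments nearest the joining segments, from position 53461099 of chromosome 14 on, held 63.0% to 71.2% of Trav counts, and the 42 farthest ones 9.72% to 14.7%. The part of reads shared by copies in these shares was not tested.

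Over all 8 libraries Trav14-1 had the highest mean share of the family (4.79%) and ranked first per kilobase, but over the 7 libraries other than WT library 1 it was the fourth on both scales (4.14%), behind Trav14-3 at 4.61% in the lead. It took 3.72%, 2.33% and 4.66% of Trav counts in GFPhi, 3.80%, 5.62% and 4.70% in GFPlow, and 9.36% and 4.14% in WT, the value of WT library 1 standing far above the rest. Trav7-4 ran from 1.21% in WT library 1 to 6.64% in GFPhi M1. Trav12-2 took 5.11%, 5.64% and 3.55% in GFPhi and 3.61%, 2.70% and 4.20% in GFPlow. Trav5-4 took 4.69%, 4.19% and 4.16% in GFPhi, 3.43%, 4.09% and 2.60% in GFPlow and 3.73% and 3.74% in WT, the GFPhi libraries lying above all others by a small margin. Trav3-3 was likewise higher by share in GFPhi (2.99% to 4.21%) than in GFPlow (2.58% to 2.98%), with GFPhi M2 and GFPlow M2 less than their counting error apart. None of these 5 passed the test in CPM in any comparison.

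**Figure D3:**
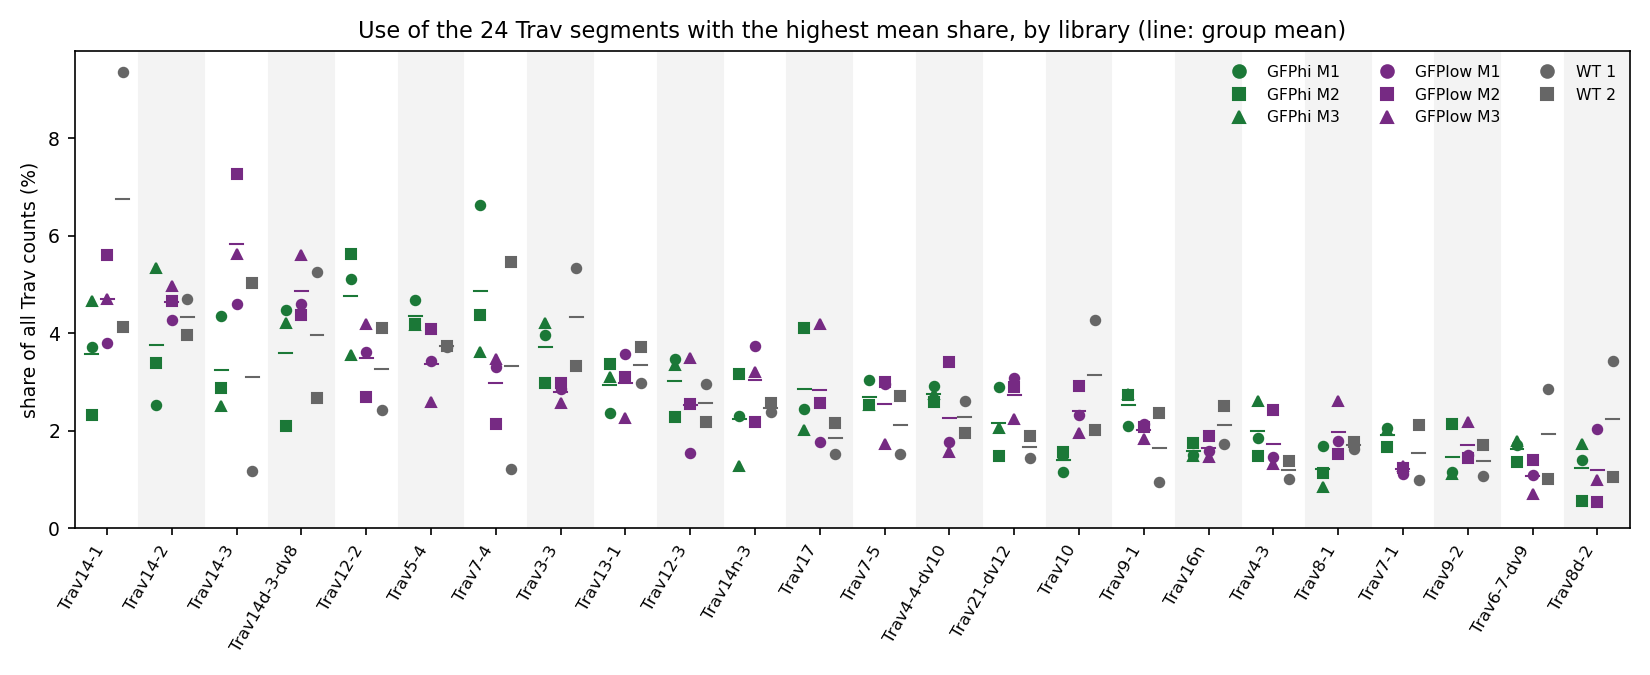
Share of all Trav counts (%, vertical axis) for the 24 segments with the highest mean share, one point per library (green GFPhi, purple GFPlow, grey WT, marker shape for the library number) and a line for each group mean. The spread within a group is wide for most segments, as for Trav14-1 in WT at 9.36% and 4.14%.

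Trav14 was the most used Trav subgroup, and Trav14-3 with its copies the most used group of copies. The 9 segments of Trav14 made up 18.6%, 14.5% and 18.8% of Trav counts in GFPhi, 22.4%, 25.6% and 24.8% in GFPlow and 24.7% and 19.6% in WT, so that GFPhi and GFPlow did not overlap. Trav14-3 (ENSMUSG00000094212, 53763173 to 53763694), Trav14d-3-dv8 (ENSMUSG00000094619, 53078452 to 53079045) and Trav14n-3 (ENSMUSG00000076824, 53370077 to 53370575) lie on the plus strand of chromosome 14. Trav14-3 is 96.9% identical to Trav14d-3-dv8 and 97.2% to Trav14n-3. The last 290 bases of each are shown to let a reader see how alike the copies are, with the bases that differ from Trav14-3 in capitals, 8 in Trav14d-3-dv8 and 6 in Trav14n-3.
Trav14-3: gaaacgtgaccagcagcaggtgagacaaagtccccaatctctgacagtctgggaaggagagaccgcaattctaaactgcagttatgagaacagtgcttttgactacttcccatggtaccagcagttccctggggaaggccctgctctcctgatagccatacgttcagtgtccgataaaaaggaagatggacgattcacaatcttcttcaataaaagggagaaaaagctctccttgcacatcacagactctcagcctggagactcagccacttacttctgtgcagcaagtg
Trav14d-3-dv8: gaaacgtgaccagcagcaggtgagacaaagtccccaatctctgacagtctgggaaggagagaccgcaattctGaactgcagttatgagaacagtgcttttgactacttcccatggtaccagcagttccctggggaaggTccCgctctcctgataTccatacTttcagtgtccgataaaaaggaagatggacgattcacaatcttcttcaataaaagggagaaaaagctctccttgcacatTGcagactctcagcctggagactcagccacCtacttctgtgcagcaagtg
Trav14n-3: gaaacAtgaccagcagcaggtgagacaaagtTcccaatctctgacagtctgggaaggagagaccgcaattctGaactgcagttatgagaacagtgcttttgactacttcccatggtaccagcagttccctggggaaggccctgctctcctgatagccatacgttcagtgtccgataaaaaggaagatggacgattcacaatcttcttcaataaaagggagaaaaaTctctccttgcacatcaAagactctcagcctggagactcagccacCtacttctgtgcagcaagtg
Long runs without a capital are the same in all 3 copies, and a read that falls within one cannot tell them apart.

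Summed over these 3 copies the group held 11.1%, 8.15% and 7.98% of Trav counts in GFPhi, 13.0%, 13.8% and 14.4% in GFPlow and 8.81% and 10.3% in WT. All 3 GFPlow libraries lay above all others. With copies summed before the fit, the group fell in GFPhi against GFPlow (log2 -1.12 ± 0.18, SE, adjusted p = 0.0188, edgeR) and rose in GFPlow against WT (1.18 ± 0.21, SE, adjusted p = 0.0238). The first call was lost with any GFPhi or GFPlow library left out (adjusted p 0.0678 to 0.117) and with a block for the M number on all 8 libraries (0.0962), and stood at 0.000968 without WT library 1. The second was lost without GFPhi M2, GFPhi M3 or any GFPlow library (0.0583 to 0.0999), with only the GFPlow and WT libraries (0.139) and with that block (0.124), and stood at 0.0142 without WT library 1. With segments scaled to the Trav total, neither passed (-0.60 with adjusted p = 0.203, and 0.52 with adjusted p = 0.177). Taken singly, Trav14-3 stood at 12.3, 8.88 and 8.0 CPM in GFPhi, 20.1, 32.4 and 23.5 CPM in GFPlow and 3.05 and 14.5 CPM in WT, with an adjusted p of 0.315 between GFPhi and GFPlow.

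No single Trav segment passed the test in any comparison, against 2.26%, 0% and 3.3% of all genes called in GFPhi against GFPlow, GFPhi against WT and GFPlow against WT. An unadjusted p under 0.05 was found for 13, 4 and 12 of the 92 tested, against 11.6%, 13.7% and 25% of all genes. DESeq2 called Trav10 and Trav8-1 lower in GFPhi than in GFPlow, where it called 7.31% of all genes. It called 6 Trav segments higher in GFPlow than in WT (Trav13-2, Trav14-3, Trav21-dv12, Trav3-1, Trav6n-6 and Trav8-2), where it called 18.3% of all genes. Without WT library 1, edgeR called 5 Trav segments lower in GFPhi than in GFPlow, namely Trav14-3, Trav10, Trav8-1, Trav13-4-dv7 and Trav12n-1, in a fit that called 9.66% of all genes. Its adjusted p ran from 0.00965 for Trav14-3 to 0.0413 for Trav12n-1. Trav13-4-dv7, which the delta chain can also use, took 0.537%, 0.637% and 0.626% of Trav counts in GFPhi, 1.72%, 0.927% and 1.31% in GFPlow and 0.274% and 1.57% in WT. The smallest p in GFPhi against WT belonged to Trbv12-2, Trav6n-6 and Trav7n-6, each with an adjusted p of 0.348. Trav6n-6 stood at 0.391%, 1.06% and 0.846% in GFPhi against 0.0748% and 0.227% in WT, and Trav7n-6 at 0.0174% to 0.0265% against 0.137% and 0.287%.

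Summed over the family, Trav RNA was lower in all 3 GFPhi than in all 3 GFPlow libraries, as was that of their constant gene. Summed Trav abundance was 282.7, 307.5 and 319.6 CPM in GFPhi, 437.1, 444.7 and 416.3 CPM in GFPlow, and 260.1 and 288.4 CPM in WT, so GFPlow lay above all others. The log2 difference of GFPhi from GFPlow was -0.51 and that of GFPlow from WT 0.66 (both p = 0.1 in an exact two-sided permutation test, the smallest p that 3 against 3 or 3 against 2 libraries allow). Segment by segment, 76 of 92 lay below 0 in GFPhi against GFPlow, with a median of -0.50 (all genes 0.01 and 48.8% below 0). Of the 92, 21 did not overlap in CPM and all 21 were lower in GFPhi, against 30% of all genes in either direction and 14% lower. In GFPhi against WT 52 of 92 lay above 0, with a median of 0.15 (all genes 0.08 and 53.4% above 0), and 20 did not overlap, 12 of them higher in GFPhi, against 15.6% of all genes higher. In GFPlow against WT 74 of 92 lay above 0, with a median of 0.65 (all genes 0.02 and 50.7% above 0), and 34 did not overlap, all higher in GFPlow, against 40.3% of all genes in either direction and 21.1% higher. Without WT library 1, 82 of 101 lay above 0 in GFPlow against WT (median 0.70) and 58 of 101 in GFPhi against WT (median 0.09). Of all 20545 genes in that fit, 10704 and 10858 lay above 0, with medians of 0.03 and 0.02.

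Trac, the alpha chain constant gene, stood at 1232, 1317 and 1416 CPM in GFPhi, 1800, 1861 and 1795 CPM in GFPlow and 721.3 and 1381 CPM in WT, with an adjusted p of 0.606 between GFPhi and GFPlow. For each 100 Trac counts there were 22.9, 23.4 and 22.6 Trav counts in GFPhi, 24.3, 23.9 and 23.2 in GFPlow, and 36.1 and 20.9 in WT libraries 1 and 2. Relative to Trac the difference between GFPhi and GFPlow came to -0.05 on the log2 scale (p = 0.2, exact permutation test). The Trbv sum did not separate these groups: it was 883.5 to 965.6 CPM in GFPhi, 910.7 to 978.0 CPM in GFPlow (log2 difference -0.02, p = 0.6, exact permutation test), and 1567 and 934.4 CPM in WT. The beta chain constant genes Trbc1 and Trbc2 were at 2307 and 3482 CPM in WT library 1, against at most 1174 and 1640 CPM elsewhere. In WT library 1 alpha chain RNA was thus low and beta chain RNA high beside all other libraries.

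**Figure D4:**
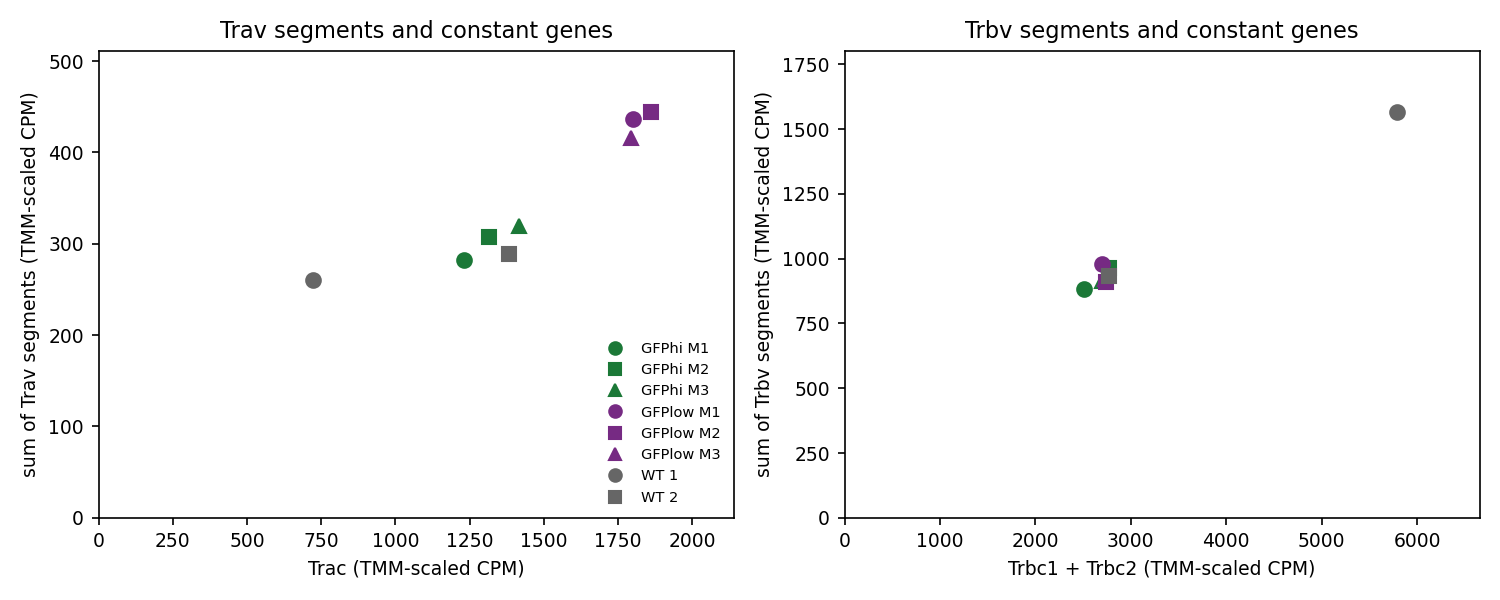
Summed Trav abundance against Trac (left) and summed Trbv abundance against Trbc1 plus Trbc2 (right), both axes in TMM-scaled CPM, one point per library. GFPlow libraries sit at the upper right for the alpha chain (416.3 to 444.7 CPM), the other libraries but WT 1 fall near one line, and for the beta chain 7 libraries lie together with WT 1 apart at 1567 CPM.

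How evenly segments were used was measured by the effective number, the number of equally used segments that would give the same Shannon entropy. For Trbv it was 16.0, 15.9 and 16.3 in GFPhi, 15.7, 15.5 and 15.6 in GFPlow and 16.2 and 15.7 in WT. GFPlow lay below both other groups, by 0.45 segments against GFPhi and 0.36 against WT (both p = 0.1, exact two-sided permutation test, the smallest possible). For Trav it ran from 46.3 in WT library 1 to 55.7 in GFPlow M1, with means of 52.7 ± 2.48 (SD, n = 3) in GFPhi and 53.0 ± 2.41 (SD, n = 3) in GFPlow, which did not differ beyond their spread (p = 1, exact permutation test). The share of the leading Trav segment was at most 7.28% outside WT library 1.

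Distances between whole repertoires were measured as the share of counts that would have to move to another segment to make 2 libraries alike. For Trbv they ran from 4.46% between GFPhi M1 and GFPhi M2 to 18.9% between GFPlow M3 and WT library 2, where counting error alone gives 1.02% to 1.10%. Libraries of GFPhi and GFPlow were on average 12.1% apart and libraries within these groups 8.49%, an excess of 3.60 points that ran from 1.64 (without GFPhi M2) to 6.24 (without GFPlow M1) with 1 library left out, 1.96 without GFPhi M1. The excess was 2.28 points for GFPhi against WT, 1.26 to 3.66 with 1 library left out, and 5.11 points for GFPlow against WT, 4.05 to 6.73. All 3 had p = 0.1 in an exact one-sided permutation test over libraries, the smallest possible with these group sizes. These distances include Trbv12-1 and Trbv12-2, so they are not separate from the differences given above. The part of that pair in the excess was not tested. For Trav the distances ran from 15.4% to 31.3%, with 3.16% to 4.52% from counting alone. Distances to WT library 1 were 23.4% to 31.3%, against 15.4% to 23.3% among the other 7 libraries. The Trav excess was 1.53, 1.16 and 2.45 points for the 3 comparisons in the same order (p = 0.2, 0.4 and 0.2, exact permutation tests), so groups were not set apart beyond the spread by Trav use. With 1 library left out these ran from 0.39 to 2.0 (lowest without GFPlow M3), -1.76 to 8.15 and -1.15 to 9.99. Without WT library 1 the latter pair became -1.76 and -0.13, and without WT library 2 8.15 and 9.99.

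Sharing an M number did not bring libraries closer on average. GFPhi and GFPlow libraries of the same M number were 10.6%, 13.5% and 13.0% apart in Trbv use, mean 12.4%, and those of different M numbers 6.72% to 15.7%, mean 12%. For Trav the means were 21.1% and 19.8%. Both comparisons had p = 0.833 in an exact one-sided test over the 6 ways to pair the libraries, whose smallest possible p is 0.167. Among all other libraries, those of the same group included, the partner with the same M number was never the nearest in Trbv or Trav use. The nearest to GFPhi M3 in Trbv use was GFPlow M1, at 6.72%. Between GFPhi and GFPlow alone, that partner was the nearest for GFPhi M1 and GFPlow M3 in Trbv use. In Trav use it was so for GFPlow M1 and GFPlow M3. Single segments were compared within M numbers too. In CPM 36 of 92 Trav segments (39.1%) and 9 of 24 Trbv segments (37.5%) differed in the same direction between GFPhi and GFPlow in all 3 M numbers, against 44.9% of all genes; of the 36, 2 were higher and 34 lower in GFPhi, and of the 9, 4 were higher and 5 lower. By share 13 of the 92 Trav segments were higher and 16 lower in GFPhi in all 3, and of the 24 Trbv segments 6 were higher and 5 lower. Shares exist only within a family, so no value over all genes stands beside these counts, which were not tested. Trbv12-1 had 5.03, 4.66 and 2.54 times the share in GFPhi that it had in GFPlow in M1, M2 and M3.

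**Figure D5:**
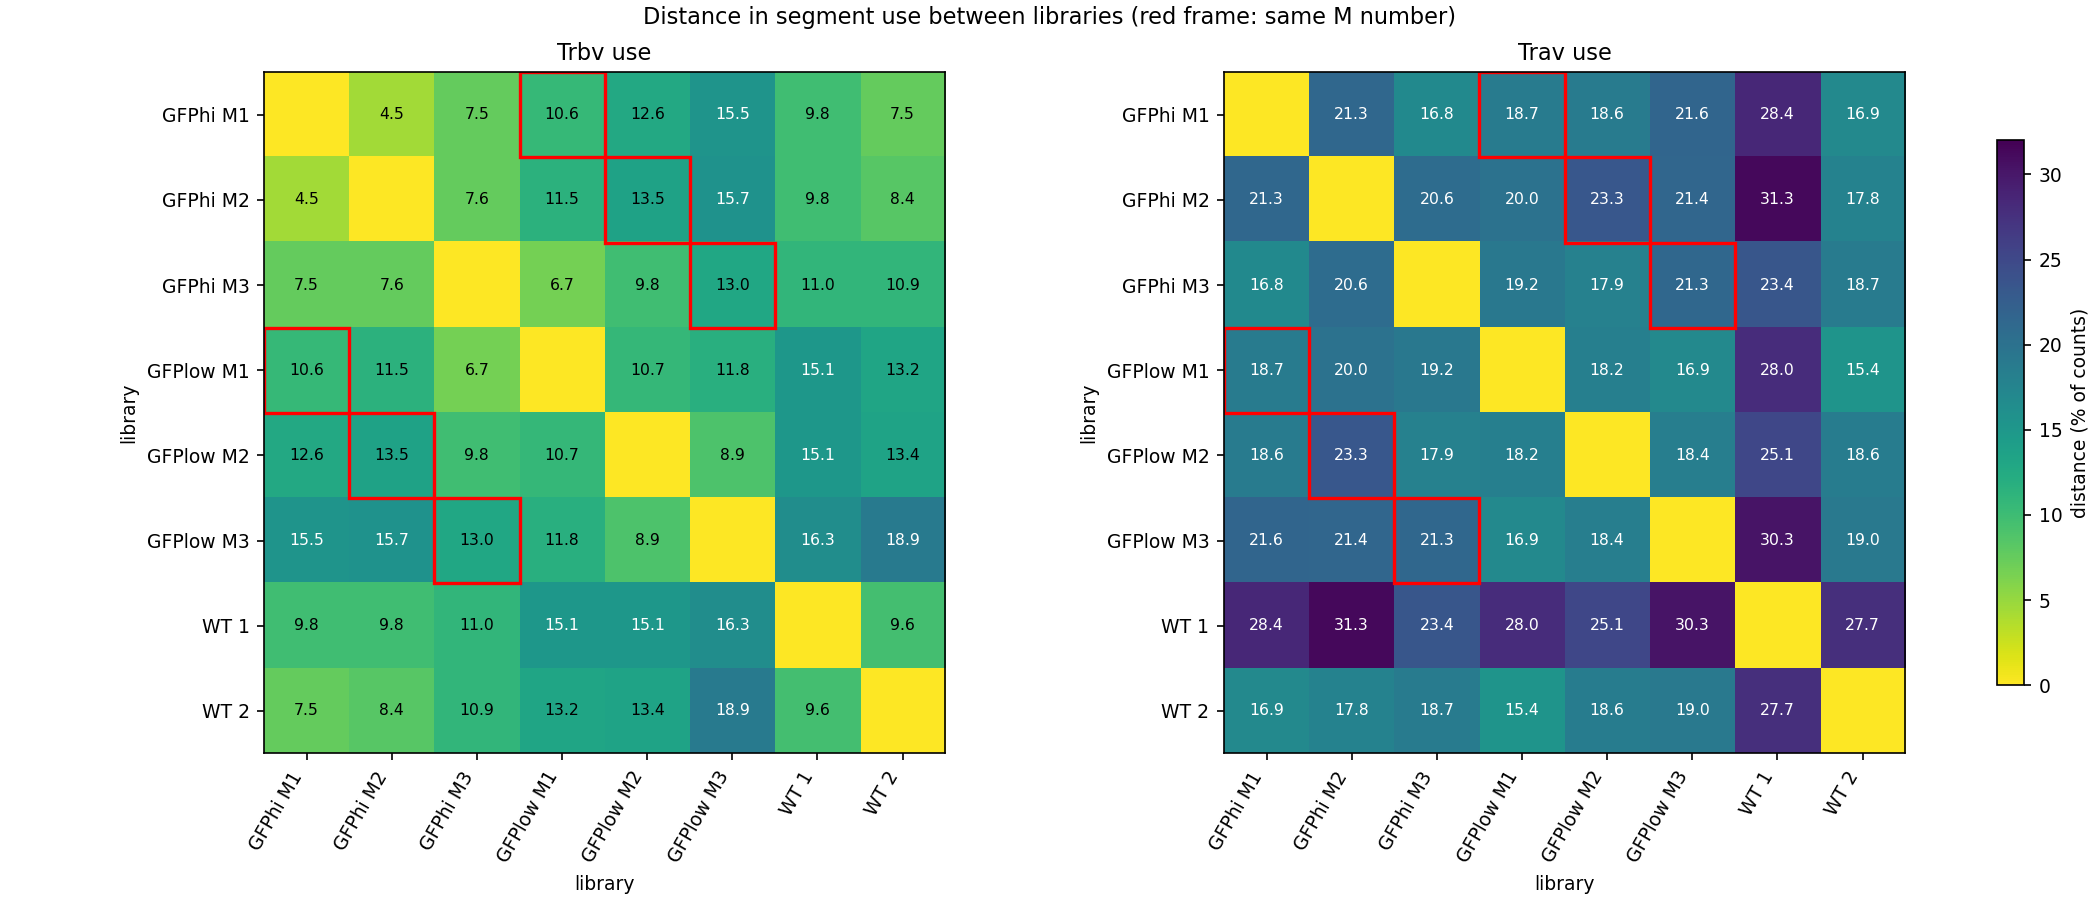
Distance in Trbv use (left) and Trav use (right) between each pair of libraries, as the percent of counts that would have to move to another segment, with pairs of the same M number framed in red. The smallest Trbv distance is that of GFPhi M1 and M2 (4.46%), Trav distances are largest to WT library 1 (up to 31.3%), and framed pairs are not the smallest.

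Some segments were high in 1 or a few libraries only. Trav3n-3 took 1.27% of Trav counts in GFPhi M3 and 0.880% in GFPlow M1, and 0.0717% to 0.186% in the other 6. It is identical in sequence to its copy Trav3d-3, so its reads could belong to either. Trav8d-2 took 3.43% in WT library 1 and 0.544% to 2.05% elsewhere. Trav8d-1 was at 1.25% in GFPhi M2 and 1.02% in GFPlow M1, against at most 0.672% elsewhere. Trav13n-4 was at 0.885% in GFPlow M1 and 0.777% in WT library 2, against at most 0.522% elsewhere. Among Trbv segments, Trbv23 took 1.81% in GFPlow M3 (exact 95% binomial interval 1.70% to 1.94%) and 0.504% to 0.867% in the others. Trbv30 stood lowest in the same library at 0.107%, against 0.244% to 0.654% elsewhere. Trbv14 ran from 0.434% in WT library 2 to 2.18% in GFPlow M1 with no order by group. None of these segments passed the test in any comparison.

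Among alpha chain segments that mark innate-like T cells, Trav11 had few counts and Trav1 took up to 1.59% of Trav counts. Invariant natural killer T cells pair Trav11 with the joining segment Traj18, and mucosal-associated invariant T cells use Trav1. Trav11 had 0, 3 and 0 counts in GFPhi, 6, 3 and 24 in GFPlow and 0 and 2 in WT, and its copy Trav11d, identical over 342 bases, had 0 to 8 counts. By the limit of 3 counts, a count of 0 stands for up to 0.0199%, 0.0174% and 0.0374% of Trav counts in GFPhi M1, GFPhi M3 and WT library 1. That limit covers counted reads only. Reads that match both Trav11 and Trav11d may have been left out, so it does not bound the use of Trav11. The copy annotated as a pseudogene, Trav11n, had more, 16 to 83 counts or 0.132% to 0.497%. It differs from Trav11 at 8 of 343 bases. Traj18 itself, which conventional cells can join too, stood at 9.86 to 11.2 CPM in GFPhi and 14.7 to 17.9 CPM in GFPlow. It was at 17.7 and 10.4 CPM in WT, with an adjusted p of 0.426 between GFPhi and GFPlow (edgeR). Zbtb16, the factor that drives both innate-like lineages, did not exceed 3.89 CPM and had no count in GFPhi M2 or either WT library. It was at 0.675, 0 and 0.834 CPM in GFPhi and 2.19, 1.22 and 3.89 CPM in GFPlow (adjusted p = 0.644, edgeR). Trav1 took 0.325%, 1.22% and 0.504% of Trav counts in GFPhi, 1.45%, 0.466% and 1.59% in GFPlow and 0.362% and 0.706% in WT. The groups overlapped (adjusted p = 0.572 between GFPhi and GFPlow by edgeR). Trdc, the delta chain constant gene, was at 1.01 to 11.2 CPM over all libraries.

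The other genes of the receptor and its first signalling steps were read as a list of 16 (constant genes, CD3 subunits, Cd4, the kinases Lck and Zap70, Lat, Ptprc, Cd2, Cd5, Cd6 and Themis). Of the 16, 1 was lower in GFPhi than in GFPlow, 0 differed between GFPhi and WT, and 1 was higher in GFPlow than in WT, in each case Themis. Of all genes, 2.26%, 0% and 3.3% were called in the same comparisons. Themis, a T cell protein that tunes receptor signals in thymic selection, was at 64.8, 76.0 and 60.4 CPM in GFPhi, 217.0, 255.4 and 243.7 CPM in GFPlow, and 64.9 and 60.7 CPM in WT. It fell by 1.83 ± 0.17 (SE, adjusted p = 0.00223 by edgeR) in GFPhi against GFPlow. The list's median log2 change was -0.08, 0.06 and 0.35 in the 3 comparisons. Cd247, the zeta chain, was at 243.1 to 245.2 CPM in GFPhi and 354.0 to 367.6 CPM in GFPlow without passing (adjusted p = 0.185). Cd3e differed by -0.03 ± 0.28 between GFPhi and GFPlow. Dntt, which adds bases at the joints during recombination, was at 0.259 to 2.05 CPM in GFPhi, 6.18 to 12.4 CPM in GFPlow and 0 and 0.552 CPM in WT, with an adjusted p of 0.216 between GFPhi and GFPlow.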

How the data were processed

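The 8 libraries were made with SMART-Seq HT and Nextera XT reagents, per the labels' protocols. The authors deposited 1 table of raw counts per Ensembl gene. The submitters' processing notes name the build GRCm38 and the tools R 4.0, HTSeq 0.11.2, SAMtools 1.9, edgeR and HISAT2 2.1.0. The strand setting was not given in the sources used here, nor was the treatment of reads that match several genes. Counts shared by copies or by overlapping genes (2 Trav and 4 Trbv segments overlap another gene) therefore cannot be assigned. Of 54837 identifiers, 54808 matched GENCODE vM21 (release 21, GRCm38), from which symbols, positions and transcript sequences come. Library totals of 44446215 to 55388756 counts gave 8016 to 23398 Trav and 44824 to 54198 Trbv counts.

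Genes were filtered by filterByExpr (18851 kept), scaled by TMM and fitted with edgeR 4.0.16 (R 4.3.3), 1 mean per group, robust quasi-likelihood, 5 residual degrees of freedom, two-sided, Benjamini-Hochberg threshold 0.05 over all genes. The fit was tested on simulated data. Shares use all segments, tested or not. Single values per library were compared by exact permutation tests. Sequences were aligned with Biopython 1.88, and values handled with pandas 2.3.3. Intervals are exact (Clopper-Pearson, 95%), the limit for a count of 0 is 3 counts, and both cover counting error only.

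Named segments are the 6 Trbv and 8 Trav with the highest mean share, those called (else the 3 smallest p), up to 6 per family with the highest ratio of the top library to the median of the other 7 (200 counts or more there), and Trav11 and Trav1. Trav8-1, Trav10, Trav12n-1, Trav14n-3, Trav13-2, Trav21-dv12, Trav3-1, Trav8-2, Trbv12-3, Trbv13-1, Trbv13-3, Trbv17, Trbv22, Themis, Cd247, Cd79b and Dntt were chosen after their values were seen. The members, lists and tests were chosen with earlier results of these data known. Alternatives were other scaling and filters, DESeq2 1.42.0, a block for the M number, only the libraries compared, copies summed, and each library left out. Scaling to the family total, and repeats of the fit with copies of Trav14-3 summed, and values against WT and mean shares without WT library 1, were chosen after seeing the data.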

Additional observations from a re-analysis of the deposited data

How the results depend on the processing

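No called value reversed its direction in any alternative. The count of segments called in GFPhi against GFPlow was 1 (2.26% of all genes called), and became 7 with the M number as a replicate block on the 6 libraries (10.3% of all genes called in that fit), 6 with only the libraries of both groups (12.3%), 2 with copies summed (2.27%), 3 by DESeq2 (7.31%), and 0 to 6 with 1 library left out (0 without GFPhi M1, GFPhi M2 or any GFPlow library, 6 without WT library 1, 9.66% of all genes, and 5 without WT library 2, 9.64%). In GFPlow against WT the count of 2 (3.3%) became 1 with the block on all 8 libraries (0.838%), 1 with only the libraries compared (0.187%), 8 by DESeq2 (18.3%), and 1 to 26 with 1 library left out, 26 being the fit in which WT library 1 stood alone, which called 43.9% of all genes. In GFPhi against WT it was 0 in every fit but that without WT library 2 (0 to 22), which called 40.1% of all genes; DESeq2 gave an adjusted p there to 1 segment of 116. A lone WT library was assumed to vary like the other groups. Of the 16 receptor genes, in the same fits, the count of 1 in GFPhi against GFPlow became 7 with the block on the 6 libraries, 8 with only those libraries, 2 by DESeq2 and 1 to 8 with 1 left out; in GFPhi against WT the 0 became 1 by DESeq2 and 0 to 12; in GFPlow against WT the 1 became 0 with only the libraries compared, 6 by DESeq2 and 1 to 14. The block changed Trbv12-2 in GFPlow against WT (adjusted p = 0.154) and the summed Trav14-3 group (0.0962 and 0.124), and no other call among segments named as called; Trbv12-1 kept its calls at 0.0410 and 0.0339. Over all genes the deviations of same-numbered libraries correlated at r = 0.07, 0.07 and 0.15, not all above 0.1. The M numbers were therefore not taken to pair libraries in the main fit. Whether they do is not settled, since each library correlated best with its own number. The Y-linked Ddx3y also matched within numbers. It was at 193.8 and 228.5 CPM in GFPhi M1 and GFPlow M1, 200.6 and 221.5 CPM in M2, and 0 in both M3 libraries. Such values do not tell M1 from M2.

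Per counts of the constant genes the log2 difference of the Trav sum was -0.051 in GFPhi against GFPlow, -0.26 in GFPhi against WT and -0.21 in GFPlow against WT, both of the latter with the other sign than in CPM. The Trbv sum per constant genes was 0.20 and 0.19 against WT for GFPhi and GFPlow, again with the other sign. WT library 1 had 36.1 Trav counts per 100 Trac counts and library 2 had 20.9, and 27.1 and 33.7 Trbv counts per 100 Trbc counts. With 1 library left out the Trav sum ran from -0.55 to -0.46, 0.07 to 0.22 and 0.58 to 0.73 in the 3 comparisons, and the Trbv sum from -0.059 to 0.0069, -0.77 to -0.021 and -0.74 to 0.0032. The effective number of Trav differed by -0.31 between GFPhi and GFPlow (0.95 by the inverse Simpson index), and ran from -1.23 to 1.12, -1.35 to 6.39 and -1.05 to 6.70; that of Trbv from 0.33 to 0.54, -0.15 to 0.32 and -0.59 to -0.13. The Trav distance excess ran from 0.39 to 2.0, -1.76 to 8.15 and -1.15 to 9.99, the Trbv one from 1.64 to 6.24, 1.26 to 3.66 and 4.05 to 6.73, and that of same M numbers from -0.58 to 2.68 for Trav and -1.76 to 2.33 for Trbv. The cause of these shifts was not tested. Depth limits segments under 0.0128% to 0.0374% of Trav counts or 0.00554% to 0.00669% of Trbv counts, which is 3 counts in a library.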
